A study of Mus musculus with 4 samples.

Results

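Mitochondrial ribosomal protein genes were mostly lower in mouse brown adipocytes that expressed a short hairpin RNA (shRNA) against Blnc1 than in cells that expressed a scrambled shRNA. Blnc1, or brown fat lncRNA 1, is a long noncoding RNA. The genes were those whose only annotated symbol begins with Mrpl or Mrps and a digit, and each was represented by its brightest probe set over the 4 arrays. That rule uses no difference between the groups and found 73 genes among the 17097 tested. By symbol, 46 belong to the large subunit (Mrpl) and 27 to the small subunit (Mrps). Of the 78 protein-coding genes with such symbols in the RefSeq table, Mrpl22, Mrpl45, Mrpl51, Mrps18c and Mrps28 have no name in the annotation used. All 73 read above the background log2 value of 2.55 in both groups, so none was lost to a filter.

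The study held 2 arrays of brown adipocytes expressing Blnc1 shRNA and 2 of brown adipocytes expressing the scramble control, all taken after 6 days of differentiation, with 250 ng of total RNA labelled for each array. The mouse strain, the vector and promoter of the hairpins, and the number of animals or clones are not given in the sources used here. The labels call the arrays biological replicates without saying whether they came from separate cultures, so the p-values measure the spread between these arrays. The comparison asks which transcripts differ when Blnc1 is targeted, and the level of Blnc1 itself was not analysed here.

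Mitochondria keep their own ribosome, the mitoribosome, which translates the few messenger RNAs of mitochondrial DNA into core subunits of the respiratory chain and of ATP synthase. All of its proteins are encoded in the nucleus, made in the cytosol and imported, while its ribosomal RNAs come from mitochondrial DNA. Part of the proteins descend from bacterial ribosomal proteins, and the rest were added in mitochondria. Brown adipocytes burn fuel for heat in abundant mitochondria and so depend on this machinery for their respiratory chain. The symbols do not always match the structure: the proteins of Mrps18a and Mrps30 sit in the large subunit, and that of Mrps36 is also known as a subunit of the 2-oxoglutarate dehydrogenase complex.

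Several of these genes start back to back with a neighbour, so that a short stretch of DNA lies between both starts. The stretches below were chosen because the genes on either side had different values, which are given further on. They are RefSeq sequences of build GRCm38.p6, read 5′ to 3′ on the strand of the gene named first, and capitals mark a match to one of the motifs described below. The first lies between 2 mitochondrial ribosomal protein genes, one of each subunit, at chr7:78783090-78783130 on the minus strand.
Mrpl46 and Mrps11: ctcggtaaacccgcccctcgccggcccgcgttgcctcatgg
The second separates Mrps12, for the small subunit protein of the decoding centre, from Sars2, for the mitochondrial seryl-tRNA synthetase, at chr7:28741822-28741967 on the minus strand.
Mrps12 and Sars2: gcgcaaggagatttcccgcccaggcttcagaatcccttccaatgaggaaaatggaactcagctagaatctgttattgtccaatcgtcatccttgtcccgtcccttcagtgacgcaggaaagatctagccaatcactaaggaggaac
The third separates Mrpl50 from the zinc finger gene Zfp189 at chr4:49521084-49521175 on the minus strand.
Mrpl50 and Zfp189: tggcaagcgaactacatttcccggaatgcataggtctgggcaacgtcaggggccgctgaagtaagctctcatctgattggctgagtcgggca
The fourth separates Mrpl40 from Hira, which encodes a histone H3 chaperone, at chr16:18876638-18876749 on the minus strand.
Mrpl40 and Hira: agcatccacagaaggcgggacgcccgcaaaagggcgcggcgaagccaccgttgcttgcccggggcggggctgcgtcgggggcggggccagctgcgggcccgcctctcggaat
The last separates Mrps27 from Ptcd2, both genes of pentatricopeptide repeat proteins, at chr13:99344679-99344785 on the plus strand, and holds an ETS motif.
Mrps27 and Ptcd2: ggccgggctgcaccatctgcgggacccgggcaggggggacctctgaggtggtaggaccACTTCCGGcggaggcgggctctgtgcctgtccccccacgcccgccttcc

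Of the 73 genes, 37 were called lower and 0 higher on the Blnc1 shRNA arrays by limma (Benjamini-Hochberg adjusted p under 0.05 over all genes), and 36 were not called. Over all genes, 7.18% were called lower and 11.4% higher. The median log2 fold change, Blnc1 shRNA minus scramble, was -0.36 over the 73 genes, with quartiles of -0.56 and -0.25, against -0.04 over all genes tested. The fold changes were negative for 70 of the 73 genes and for 9532 of all 17097. At an unadjusted p under 0.05, 56 of the 73 genes differed. The genes are brighter than most: with the dimmest 40 percent of genes left out, 41 of the 73 were called lower, against 11.8% of the genes then tested.

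Both Blnc1 shRNA arrays read below both scramble arrays for 66 of the 73 genes, a pattern that 34.3% of all genes showed. The groups overlapped for Mrpl16, Mrpl47, Mrpl54, Mrps7 and Mrps22, and Blnc1 shRNA lay above scramble for Mrps6 and Mrps15. The mean log2 value of the 73 genes was 7.54 and 7.52 on the Blnc1 shRNA arrays, against 7.94 and 7.90 on the scramble arrays. The arrays of a group thus differed by less than the groups did.

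The counts depend on each Blnc1 shRNA array. With Blnc1 shRNA replicate 1 left out, 10 of the 73 genes were called lower, and with replicate 2 left out 8 were, against 1.82% and 1.49% of all genes in the same fits, while leaving out a scramble array gave 28 and 29. The median log2 fold change stayed between -0.38 and -0.36 in these fits. Scaling moved the count less: it was 45 after quantile normalization and 31 with each array centred on its median, where 9.15% and 4.94% of all genes were called lower. Over all genes, 1941 were called higher and 1228 lower, against 1514 and 1564 after quantile normalization and 2383 and 844 after centring.

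**Figure D1:**
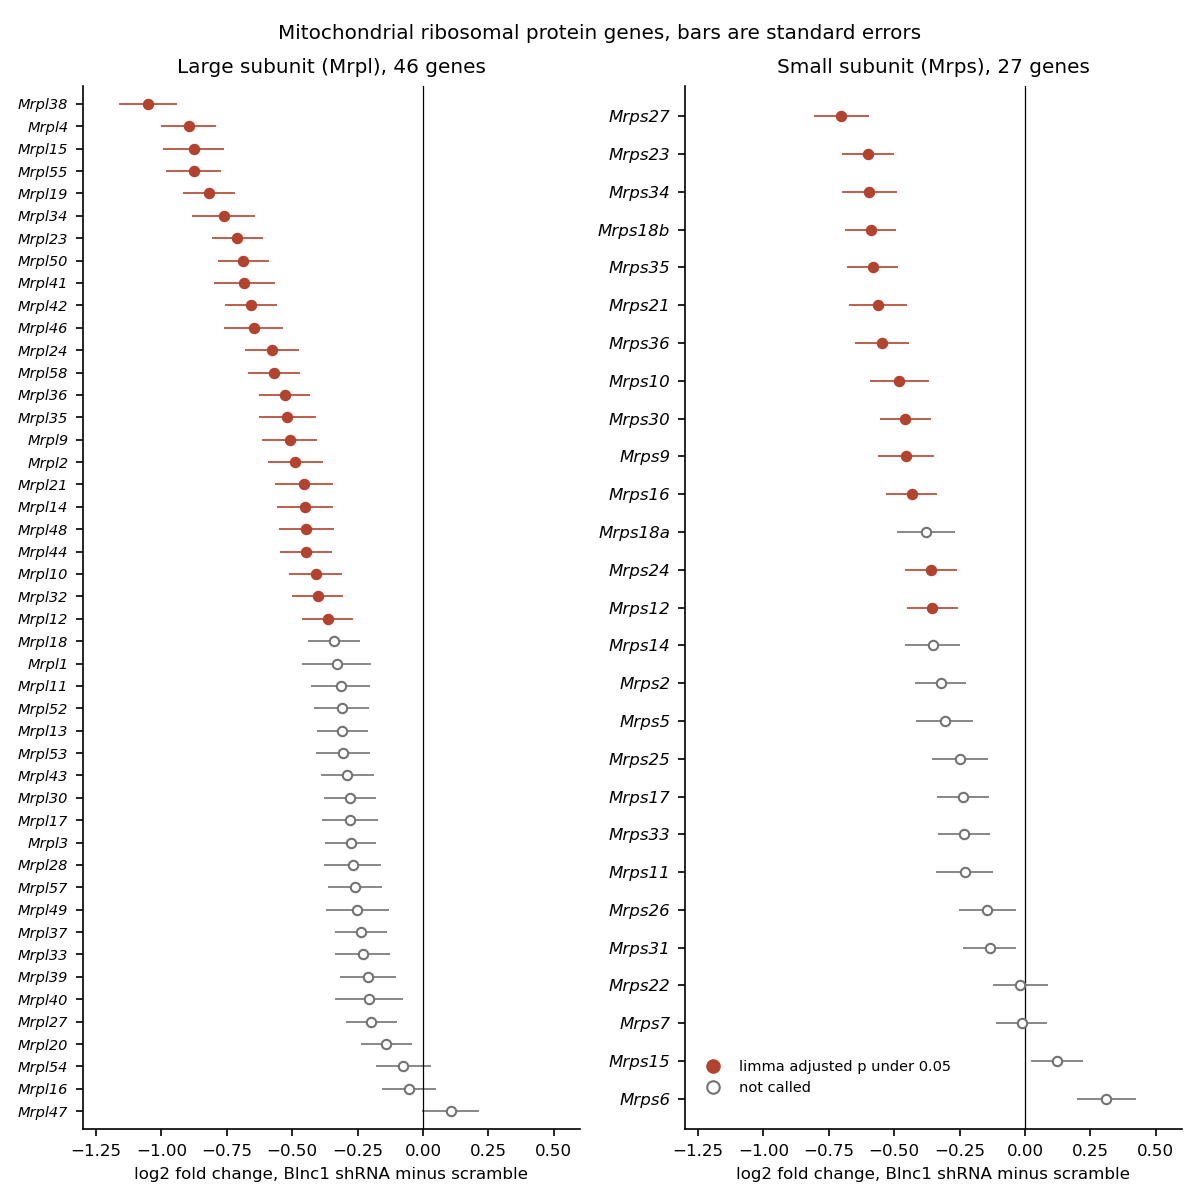
Log2 fold change (Blnc1 shRNA minus scramble, 2 arrays each) of the 46 large subunit genes on the left and the 27 small subunit genes on the right, with bars for standard errors from limma. Filled points passed an adjusted p of 0.05, and all 37 of them lie left of 0; the lowest is Mrpl38 at -1.05.

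The medians and counts of the 2 subunits lay close together. In the large subunit 24 of 46 genes were called lower with a median log2 fold change of -0.38, and in the small subunit 13 of 27 with a median of -0.36. The shares of all genes tested were 7.18% lower and 11.4% higher, and their median was -0.04. The mean log2 value of the large subunit genes was 7.59 and 7.56 with Blnc1 shRNA, against 8.03 and 7.98 with scramble. That of the small subunit genes was 7.45 and 7.45 with Blnc1 shRNA, against 7.79 and 7.76 with scramble. No test of the difference between the subunits was made, since the genes of a subunit are not replicates. With Mrps18a and Mrps30 counted in the large subunit, where their proteins are found, the counts became 25 of 48 and 12 of 25. Mrps36, called lower, stayed among the small subunit genes in both counts.

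The genes were also split by origin, with no test between the classes. Of 44 genes with a bacterial counterpart 22 were called lower, with a median log2 fold change of -0.36, and of 28 genes of mitochondria only 14 were, with a median of -0.38. Mrpl55 was left out of this split. In the large subunit the counts were 15 of 28 with a counterpart and 8 of 17 without, and in the small subunit 7 of 16 and 6 of 11. Each of these shares lies above the 7.18% of all genes called lower. The balance moved with the setting. After centring, 16 of 44 with a counterpart and 14 of 28 of mitochondria only were called lower, against 4.94% of all genes. After quantile normalization the counts were 28 and 16, against 9.15% of all genes. Fewer genes of both classes were called with either Blnc1 shRNA array left out, as over all genes. The medians were then -0.37 with a counterpart and -0.40 of mitochondria only without replicate 1, and -0.36 and -0.39 without replicate 2.

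In the large subunit, 5 genes had the most negative values. Mrpl38, for a protein of mitochondria only, read 5.53 and 5.35 with Blnc1 shRNA, against 6.51 and 6.47 with scramble. Mrpl4, whose bacterial relative lines the tunnel through which the new chain leaves the ribosome, read 7.12 and 7.13 with Blnc1 shRNA, against 8.09 and 7.95 with scramble. In both genes the gap between the groups was wider than the spread within either. Mrpl38 (Entrez Gene 60441) was 2.07-fold lower (adjusted p = 0.00177, limma) and Mrpl4 (Entrez Gene 66163) 1.86-fold lower (adjusted p = 0.00254, limma).

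Mrpl15, a protein with a bacterial counterpart, read 7.87 and 7.68 with Blnc1 shRNA, against 8.72 and 8.58 with scramble. Mrpl55 read 7.15 and 7.01 with Blnc1 shRNA, against 7.92 and 7.99 with scramble. Mrpl19, whose bacterial relative lies at the contact between the subunits, read 6.58 and 6.56 with Blnc1 shRNA, against 7.43 and 7.35 with scramble. None of the 3 overlapped between the groups. Their log2 fold changes were -0.88, -0.88 and -0.82, with limma adjusted p-values of 0.00398, 0.00274 and 0.0029.

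Mrpl23, of the rim of the exit tunnel, read 7.36 on both Blnc1 shRNA arrays, against 8.07 on both scramble arrays. Mrpl50 read 6.96 and 6.93 with Blnc1 shRNA, against 7.63 and 7.64 with scramble. In these 2 genes the arrays of a group were almost equal, and the log2 fold changes were -0.71 and -0.69 (limma adjusted p = 0.00449 and 0.00507). In the small subunit the lowest gene was Mrps27, with 4.62 on both Blnc1 shRNA arrays, against 5.39 and 5.26 with scramble. Its log2 fold change was -0.70 (limma adjusted p = 0.00581), and its signal was the second dimmest of the 73 genes.

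These 8 genes, Mrpl38, Mrpl4, Mrpl15, Mrpl55, Mrpl19, Mrpl23, Mrpl50 and Mrps27, were called lower in every refit of all genes, which cover the scaling, filter, variance, averaging and block alternatives and each array left out in turn. Other single probe sets of 4 of them gave smaller or opposite values, as described below. Mrps27 was the only small subunit gene still called with either Blnc1 shRNA array left out.

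**Figure D2:**
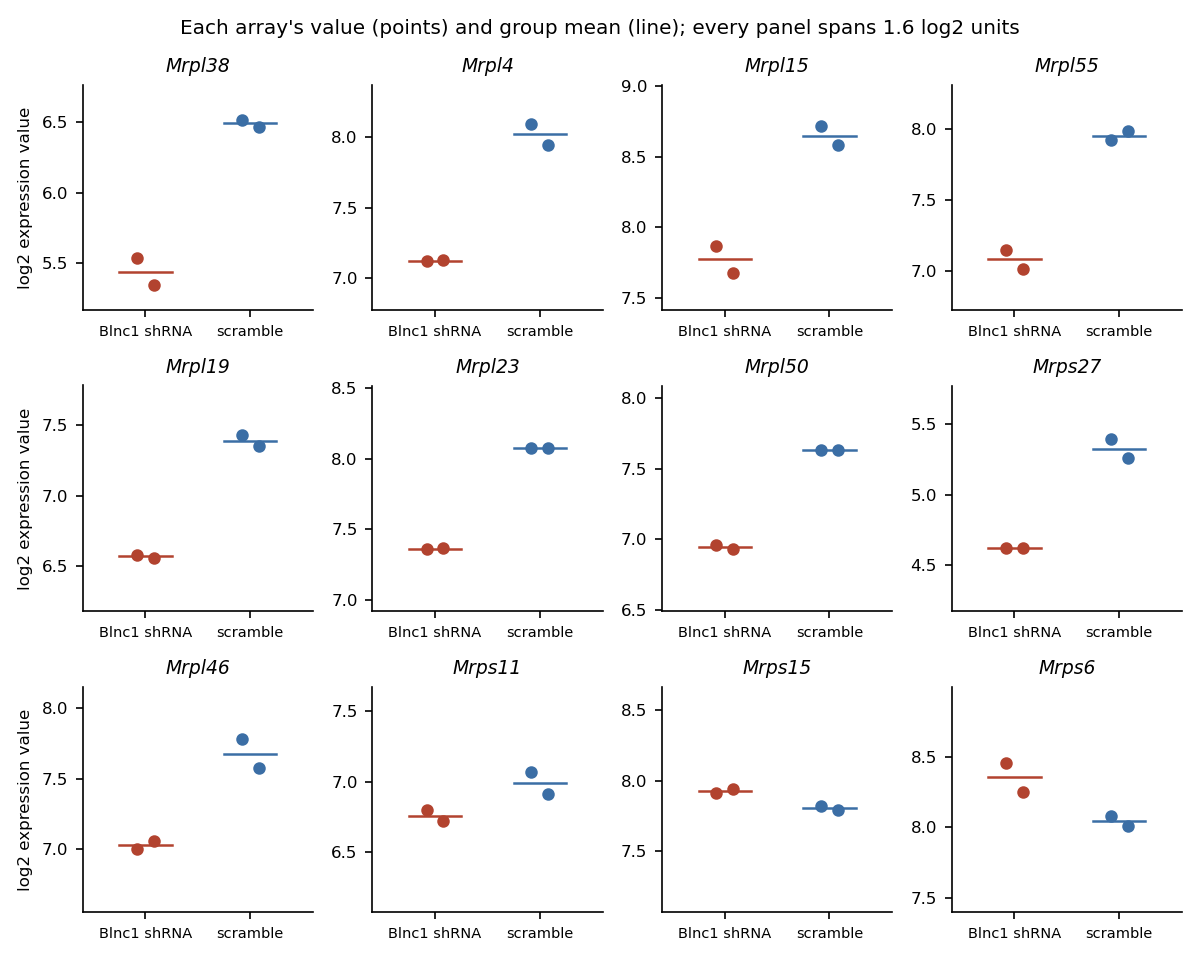
Log2 expression value on each array for 12 genes, with Blnc1 shRNA in red on the left of each panel and scramble in blue on the right, and lines for the means of 2 arrays. The top 8 panels show the genes called lower in every fit, the bottom row Mrpl46 and Mrps11, which share a start region, and Mrps15 and Mrps6, whose Blnc1 shRNA arrays lie above scramble.

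The other large subunit genes called lower fell by less than those 5. Mrpl34, Mrpl41, Mrpl42 and Mrpl46 had log2 fold changes of -0.76, -0.68, -0.66 and -0.65. Mrpl42 was the brightest called member, with 9.44 and 9.37 on the Blnc1 shRNA arrays, against 10.07 and 10.06 with scramble. It was 1.58-fold lower (limma adjusted p = 0.00616), so the calls were not limited to dim probe sets.

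Mrpl58, which encodes the peptidyl-tRNA hydrolase ICT1 that frees stalled chains, was called at a log2 fold change of -0.57. Mrpl2, whose bacterial relative lies near the peptidyl transferase centre, was called at -0.49. Mrpl44, which has an RNase III-like fold, was called at -0.45, as was Mrpl14, the docking site of the assembly factor MALSU1. Mrpl24, Mrpl36, Mrpl35, Mrpl9, Mrpl21 and Mrpl48 lay between -0.58 and -0.45. Each of these 10 genes read lower on both Blnc1 shRNA arrays than on either scramble array.

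The smallest called changes of the large subunit included both genes of its stalk, which recruits translation factors. Mrpl12 read 8.90 and 8.92 with Blnc1 shRNA, against 9.28 and 9.26 with scramble. Mrpl10, which anchors MRPL12, read 6.75 and 6.67 with Blnc1 shRNA, against 7.13 and 7.11 with scramble. The log2 fold changes were -0.36 and -0.41 (limma adjusted p = 0.0436 and 0.0321), close to the threshold. Mrpl32, whose precursor is cut by the inner membrane m-AAA protease, was called at -0.40 (limma adjusted p = 0.0316).

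In the small subunit, Mrps23, Mrps34, Mrps18b, Mrps35 and Mrps21 followed Mrps27, with log2 fold changes of -0.60, -0.59, -0.59, -0.58 and -0.56. Mrps36 was called at -0.55, Mrps10 at -0.48, Mrps9 at -0.46 and Mrps16 at -0.43. The weakest calls were Mrps24 and Mrps12, both at -0.36 with limma adjusted p-values of 0.0455 and 0.0468. Mrps16 was the brightest gene of the small subunit, with 9.15 and 9.14 on the Blnc1 shRNA arrays, against 9.56 and 9.60 with scramble.

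Mrps18a, Mrps18b and Mrps18c are paralogs that derive from 1 bacterial protein, and their products occupy different places in the mitoribosome. Mrps18b read 7.46 and 7.49 with Blnc1 shRNA, against 8.06 and 8.06 with scramble (limma adjusted p = 0.0086). Mrps18a read 7.17 and 7.26 with Blnc1 shRNA, against 7.51 and 7.69 with scramble, which missed the threshold (limma adjusted p = 0.0582). The groups did not overlap in either gene. Mrps30, also of the large subunit by structure, was called at -0.46 on the log2 scale (limma adjusted p = 0.0211).

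Some genes read nearly the same in both groups. Mrps7 and Mrps22, of the small subunit, had log2 fold changes of -0.01 and -0.02, each with a standard error of 0.10, and overlapping groups. Mrps22 read 8.21 and 8.07 with Blnc1 shRNA, against 8.18 and 8.14 with scramble. The sign of both turned under some settings. Mrpl47, the dimmest of the 73 genes, read 4.14 and 3.97 with Blnc1 shRNA, against 3.92 and 3.97 with scramble, a log2 fold change of 0.11 ± 0.11 (SE). Among the brightest genes, Mrpl30, Mrpl39 and Mrps14 did not pass, at -0.28, -0.21 and -0.35 on the log2 scale. Mrpl37, the third dimmest, was not called at -0.24.

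Mrps15 and Mrps6 were the genes whose Blnc1 shRNA arrays lay above scramble. Mrps15 read 7.91 and 7.94 with Blnc1 shRNA, against 7.82 and 7.79 with scramble (log2 fold change 0.12, limma adjusted p = 0.428). Mrps6 read 8.45 and 8.25 with Blnc1 shRNA, against 8.08 and 8.01 with scramble (log2 fold change 0.31, limma adjusted p = 0.103). Neither passed the threshold, though Mrps6 was called higher when the variance was fitted as a trend with intensity (limma adjusted p = 0.011). The 250 bases before the start of Mrps6, at chr16:92058086-92058335 on the plus strand, are shown because its values ran against those of the other genes, and they hold none of the motifs searched.
Mrps6: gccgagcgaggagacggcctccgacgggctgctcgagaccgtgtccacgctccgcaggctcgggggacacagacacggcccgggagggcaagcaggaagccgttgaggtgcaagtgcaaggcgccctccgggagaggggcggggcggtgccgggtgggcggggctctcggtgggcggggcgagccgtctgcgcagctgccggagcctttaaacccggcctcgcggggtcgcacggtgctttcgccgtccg

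Other probe sets gave a second reading of some genes. The 73 genes have 129 probe sets, and 38 genes have several. Of the 56 dimmer probe sets, 45 read above background in both groups, and of these 39 had a negative and 6 a positive log2 fold change, with a median of -0.21. The second probe set of Mrpl19 was at -1.24, with 5.33 and 5.44 on the Blnc1 shRNA arrays, against 6.70 and 6.54 with scramble. A second probe set gave -0.91 for Mrps23 and -0.89 for Mrpl9, both lower than the brightest one. For Mrpl39, whose brightest probe set was at -0.21 and was not called, the second gave -0.44 at a mean log2 level of 7.74. Others gave smaller changes than the brightest one: -0.12 against -0.88 for Mrpl15, -0.20 against -0.69 for Mrpl50, -0.18 against -0.76 for Mrpl34, and -0.37 against -0.82 for the third of Mrpl19. The mean log2 levels of these dimmer probe sets were 4.03, 6.32, 2.72 and 3.24, against a background of 2.55. These examples were chosen after their values were seen.

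Probe sets above background differed in sign for 4 genes. For Mrpl38 the brightest probe set gave -1.05 and the dimmer ones 0.05 and -0.44, at mean log2 levels of 3.36 and 3.11. The brightest probe set of Mrpl38, as of Mrpl19, Mrpl37, Mrps24 and Mrps12, is of a type that can detect transcripts of more than 1 gene, so those 5 values are uncertain. Mrpl1 was at -0.33, 0.23 and -0.13, Mrpl21 at -0.46 and 0.001, and Mrpl35 at -0.52, -0.49 and 0.03.

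Other genes needed for mitochondrial translation were called lower less often than the 73 genes and more often than all genes (7.18%). No test set their share against that of the 73 genes. Of 4 measured mitoribosome subunits with other names, Chchd1 was called lower at -0.50 on the log2 scale (limma adjusted p = 0.0168). Gadd45gip1, Dap3 and Ptcd3 were not called, at -0.29, -0.08 and 0.10. Of 24 measured translation factors, aminoacyl-tRNA synthetases included, 5 (20.8%) were called lower and 1 higher, with a median log2 fold change of -0.11. These factors were dimmer than the 73 genes, at a median log2 level of 5.12 against 7.73. The list named 31 genes.

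The largest of those changes was in Oxa1l, which inserts newly made proteins into the inner membrane. It read 4.99 and 4.87 with Blnc1 shRNA, against 5.70 and 5.77 with scramble, and was 1.75-fold lower (limma adjusted p = 0.00351). The elongation factor genes Tsfm and Tufm, for mitochondrial EF-Ts and EF-Tu, were called at -0.57 and -0.37. Of the synthetase genes, Ears2 was called at -0.67 and Aars2 at -0.45, while Cars2 was called higher at 0.51. The sign thus differed among synthetase genes.

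Of 25 measured factors for mitoribosome assembly and ribosomal RNA, from a list of 30, 6 (24%) were called lower and 1 higher. Over all genes, 7.18% were called lower and 11.4% higher. The median log2 fold change of these factors was -0.13, at a median log2 level of 5.79. Eral1, a chaperone of the small subunit's ribosomal RNA, was lowest at -0.73, with 4.61 and 4.42 on the Blnc1 shRNA arrays, against 5.27 and 5.21 with scramble (limma adjusted p = 0.00633). The GTPase gene Mtg1 was at -0.71 and the pseudouridine synthase gene Rpusd3 at -0.60. C1qbp was called at -0.50, Mterf4 at -0.47 and Malsu1 at -0.41. Trub2, for another pseudouridine synthase, was called higher at 0.50. Fewer translation and assembly factors were called lower with either Blnc1 shRNA array left out, as over all genes. The medians were then -0.09 and -0.15 without replicate 1, and -0.13 and -0.15 without replicate 2.

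The cytosolic ribosomal proteins, which build the other ribosome of the cell, shared the direction with smaller sizes. Of 65 genes, 60 (92.3%) had a negative log2 fold change, against 55.8% of all genes, and the median was -0.21. Both Blnc1 shRNA arrays read below both scramble arrays for 58 of the 65, against 34.3% of all genes. That pattern, seen for 66 of the 73 mitochondrial genes, is thus not particular to them. The limma calls were 6 lower and 0 higher, and the 9.23% called lower lay near the 7.18% of all genes. The cytosolic genes were brighter, at a median log2 level of 10.79 against 7.73 for the mitochondrial ones. Whether this affects the sizes was not tested. Rpl29 fell most, with 9.77 and 9.85 on the Blnc1 shRNA arrays, against 10.46 and 10.41 with scramble (log2 fold change -0.63, limma adjusted p = 0.00772). Rps12, Rps10, Rpl36a, Rpl32 and Rpl13 were called between -0.53 and -0.38, and Rpl13 read 0.19 when all its probe sets were averaged.

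How many cytosolic genes passed depended on the variance model. With a variance trend, 44 of the 65 cytosolic genes were called lower, as were 56 of the 73 mitochondrial ones, against 10.5% of all genes in that fit. Fewer cytosolic genes were called with either Blnc1 shRNA array left out, as over all genes. Their median was then -0.21 without replicate 1 and -0.20 without replicate 2. The medians kept their order under scaling, at -0.46 for mitochondrial and -0.17 for cytosolic genes after quantile normalization, and -0.29 and -0.15 after centring.

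**Figure D3:**
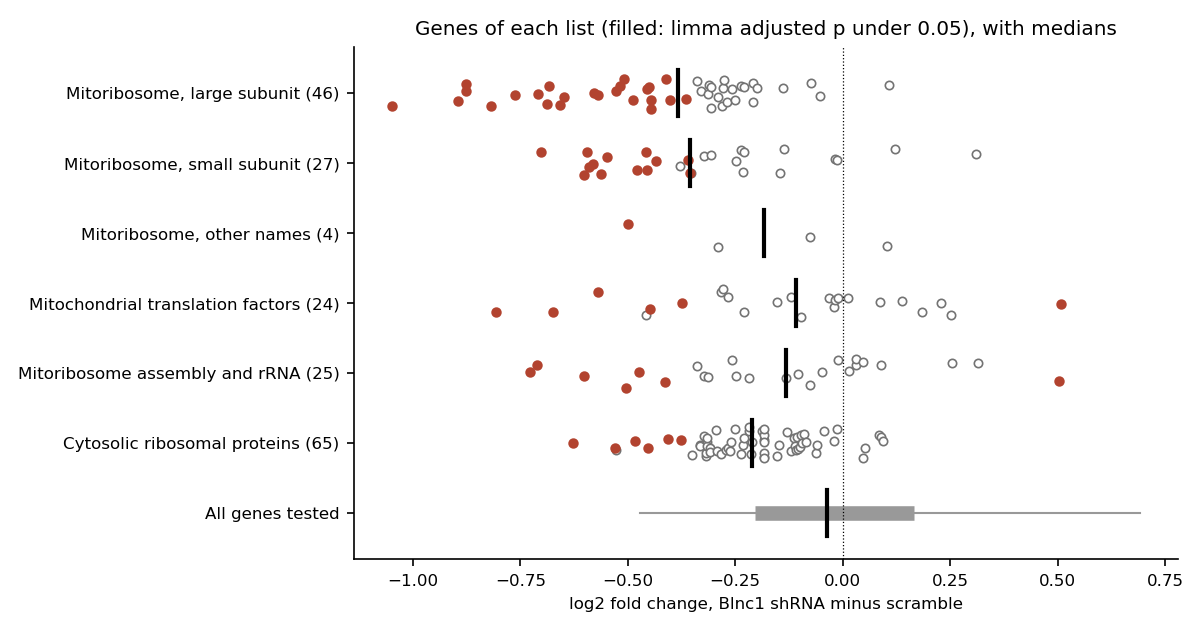
Log2 fold change (Blnc1 shRNA minus scramble) of each gene in the 2 subunits, the 3 lists of other mitochondrial translation genes and the cytosolic ribosomal proteins, with the number of genes in brackets, filled where limma's adjusted p was under 0.05 and a black bar for the median. The bottom row gives the middle of all 17097 genes (thick bar for quartiles, thin line for the 5th to 95th percentile); the medians run from -0.38 for the large subunit to -0.04 for all genes.

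Back-to-back starts were common among the mitochondrial ribosomal genes that have a RefSeq promoter window. Mrpl38, Mrpl4, Mrpl15 and Mrpl19, which are among the genes with the most negative values, have no window. Neither do Mrpl13, Mrpl54, Mrps34 and Mrps35. The results on pairs and on motifs leave these genes out. Of the 65 with a RefSeq promoter window, 20 (30.8%) had a neighbour that starts on the other strand within 300 bases in the opposite direction, against 12.6% of the tested genes with a window and 9.44% of all genes with one. For 16 of them the neighbour was measured and was not itself one of the 73 genes. In 13 of these 16 pairs the mitochondrial ribosomal gene had the lower log2 fold change. The same count with neighbours drawn from all genes was not made. The 73 genes had a median of -0.36 against -0.04 over all genes, so the count does not set these pairs apart. The medians were -0.31 for the ribosomal genes and 0.01 for their neighbours, and 7 ribosomal genes were called lower, against 1 neighbour lower and 1 higher. Over all genes, 7.18% were called lower and 11.4% higher. Some neighbours were dim, with Zfp189 and Cyb5rl near the background of 2.55 and 4930473A02Rik below it, while Fau, Tcp1 and Psma2 were bright. A change in a dim neighbour may be missed, which limits the contrast. The difference within a pair was not tested, and the pairs named here were chosen after their values were seen.

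Mrpl46 and Mrps11, with the 41 bases shown above between them, gave different values within the ribosome itself. Mrpl46 read 7.001 and 7.06 with Blnc1 shRNA, against 7.78 and 7.57 with scramble. Mrps11 read 6.80 and 6.72 with Blnc1 shRNA, against 7.07 and 6.91 with scramble. Both lay lower with Blnc1 shRNA on each array, and only Mrpl46 was called (log2 fold change -0.65, limma adjusted p = 0.0105, against -0.23, adjusted p = 0.183, for Mrps11).

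Across the 146 bases between them, Mrps12 was called lower and Sars2 was not called. Mrps12 read 7.56 and 7.54 with Blnc1 shRNA, against 7.92 and 7.90 with scramble. Sars2 read 3.39 and 3.37 with Blnc1 shRNA, against 3.30 and 3.29 with scramble (log2 fold change 0.09, limma adjusted p = 0.584). As Sars2 was much dimmer than Mrps12, a change in it may be missed. Zfp189, opposite Mrpl50, had a log2 fold change of 0.27, near background, and was not called (limma adjusted p = 0.148). Ptcd2, opposite Mrps27, was at -0.26 and was not called (limma adjusted p = 0.12).

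Mrpl40 and Hira differed most of the pairs. Hira read 4.84 and 4.99 with Blnc1 shRNA, against 4.11 and 3.95 with scramble, and was 1.85-fold higher (limma adjusted p = 0.00354). Mrpl40 read 7.21 and 7.25 with Blnc1 shRNA, against 7.60 and 7.28 with scramble (log2 fold change -0.21, limma adjusted p = 0.309). The one neighbour that was called lower was Klc4, a kinesin light chain gene opposite Mrpl2, at -0.44 against -0.49 for Mrpl2. Mrpl43 and Twnk, the mitochondrial DNA helicase gene, were at -0.29 and -0.33, and neither was called.

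**Figure D4:**
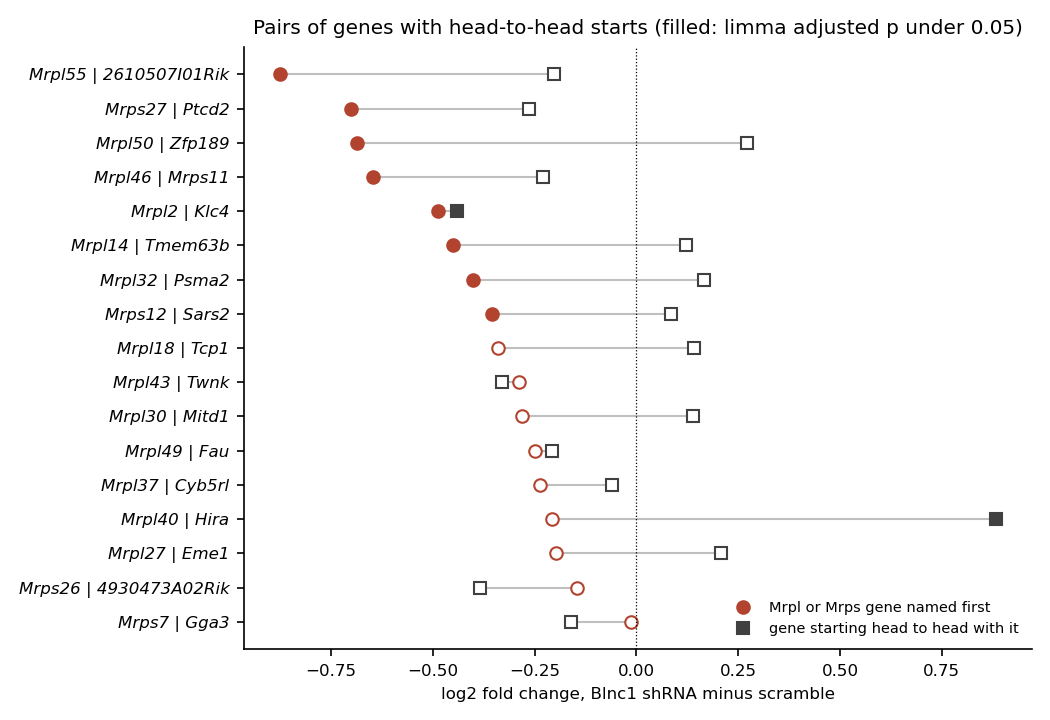
Log2 fold change (Blnc1 shRNA minus scramble) of the genes in each pair with back-to-back starts, with red circles for the mitochondrial ribosomal gene named first, dark squares for its neighbour, and filled marks for an adjusted p under 0.05 by limma. The circle lies left of the square in most rows, and Hira at 0.88 is the one filled square right of 0.

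Of 5 motifs searched on both strands in the window from 250 bases before to 50 bases after the start, 3 were held by a larger share of these genes than of the tested genes. The YY1 motif AANATGGC was found for 20 of 65 genes (30.8%), against 8.14% of the tested genes and 6.96% of all genes with a window. The NRF1 motif GCGCANGCG was found for 14 (21.5%), against 11.3% and 7.03%. The ETS motif CCGGAAGT was found for 10 (15.4%), against 6.69% and 4.31%. None of the 5 motifs contains another, and 39 of the 65 genes held at least 1 of these 3, against 23.0% of the tested genes.

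The E-box CACGTG was found for 4 genes (6.15%), against 10.2% of the tested genes, and the ERR motif TCAAGGTCA for 0, against 0.385%. A match is only a run of letters and was not tested as a binding site. Of the 31 genes called lower that have a window, 20 held an NRF1, ETS or YY1 motif, and so did 19 of the 34 not called. By motif, NRF1 was found for 9 of the 31 called and 5 of the 34 not called, ETS for 2 and 8, and YY1 for 11 and 9.

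The bases before the start of 2 called genes show the motifs in place, NRF1 for Mrps18b at chr17:35916441-35916690 on the minus strand and YY1 for Mrpl24 at chr3:87919294-87919543 on the plus strand.
Mrps18b: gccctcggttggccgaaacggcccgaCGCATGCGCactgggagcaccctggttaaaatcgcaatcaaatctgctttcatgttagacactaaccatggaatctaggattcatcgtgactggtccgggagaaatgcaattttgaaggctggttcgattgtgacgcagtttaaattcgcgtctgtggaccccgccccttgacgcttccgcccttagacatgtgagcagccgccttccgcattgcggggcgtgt
Mrpl24: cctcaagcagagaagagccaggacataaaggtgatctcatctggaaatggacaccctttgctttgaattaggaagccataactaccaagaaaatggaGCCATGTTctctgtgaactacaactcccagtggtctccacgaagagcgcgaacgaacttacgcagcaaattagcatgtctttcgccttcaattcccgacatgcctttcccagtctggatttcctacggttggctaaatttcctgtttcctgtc
Mrps18b and Mrpl24 had log2 fold changes of -0.59 and -0.58 (limma adjusted p = 0.0086 and 0.0114).

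Measures of RNA quality and of cell types moved with the groups, and their part in these results was not tested. The log2 difference between the 3′ and the 5′ control probe sets of Actb averaged 1.82 ± 0.08 with Blnc1 shRNA and 1.07 ± 0.11 with scramble (SD, n = 2 each), and that of Gapdh 0.37 ± 0.04 with Blnc1 shRNA and 0.06 ± 0.04 with scramble (SD, n = 2 each). For Tfrc it was 0.13 and 0.12 with Blnc1 shRNA, against 0.0063 and 0.17 with scramble, and these overlapped. The middle control probe set of 18S ribosomal RNA shifted most of these measures, at log2 values of 6.64 and 7.01 with Blnc1 shRNA, against 5.13 and 4.43 with scramble. Of 7 measured brown adipocyte markers, 4 were called lower (Ucp1, Cidea, Dio2 and Cox8b). The mean log2 value of the 7 was 7.98 and 8.003 with Blnc1 shRNA, against 8.81 and 8.83 with scramble. All but Dio2 lay above background in both groups. Dio2, above it in the scramble group only, read 2.56 and 2.34 with Blnc1 shRNA, against 3.57 and 3.23 with scramble. Adipoq, Fabp4 and Pparg moved little, by 0.07, 0.02 and -0.17 on the log2 scale, and none of them passed the threshold. All 4 measured fibroblast or preadipocyte markers were called higher, at a mean of 5.58 and 5.54 with Blnc1 shRNA, against 4.54 and 4.64 with scramble. All 5 hepatocyte markers were called lower, at a mean of 3.36 and 2.64 with Blnc1 shRNA, against 5.01 and 4.85 with scramble. Of the others, 1 of 4 macrophage markers was called higher, 1 of 4 muscle markers and the 1 erythroid marker lower, and 0 of 3 endothelial markers, while Ptprc and Cdh5 were at background in both groups. In RNA from whole cultures, fewer cells of a type and less RNA per cell cannot be told apart.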

How the data were processed

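RNA of 4 brown adipocyte samples was hybridised to Affymetrix mouse PM strip arrays after 3′ in vitro transcription labelling, per the labels' protocols. The deposited values are log2 expression values, 1 per probe set and array, from 1.05 to 12.36. The submitters' processing notes name affy, RMA and limma without their versions or what each was used for, and no source used here states the normalization. The number of arrays limits the precision, with a median standard error of 0.11 for log2 fold changes.

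Of 45141 probe sets, 104 controls were left out. GEO's platform annotation gives 1 symbol for 28898 of the others, several for 551 and none for 15588. All 73 members matched RefSeq by Entrez ID. Background was the highest value of antigenomic controls with 3 to 24 G or C bases.

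All 45037 probe sets were fitted with limma 3.58.1 in R 4.3.3 (lmFit and eBayes, two-sided, with no term but the group), and p-values were adjusted by Benjamini-Hochberg over 17097 genes at a threshold of 0.05. The fit was tested on simulated data. Plots were drawn with matplotlib 3.10.9. The deviations of the replicate 1 arrays from their group means correlated at 0.04 between the groups. With 2 arrays per group, those of replicate 2 are their mirror image and add no information. The numbers were not taken to pair the arrays.

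By rule, genes named with values are all called members, the 5 members at each end of the fold changes, and the 5 brightest and 3 dimmest. The rule also takes Mrps18a, Mrps18b, Mrps30 and Mrps36, members whose probe sets differ in sign, and up to 6 called genes of each other list. Outside it, values are given for Malsu1, Gadd45gip1, Dap3, Ptcd3, genes of back-to-back pairs, cell type markers, genes of shared probe sets and genes that turned sign. The members, the lists and the motifs were chosen with earlier results of these data known. The alternatives were quantile normalization, centring, a filter on the dimmest 40 percent, trended and robust eBayes, averaged probe sets, single probe sets, another subunit assignment, a replicate block and leaving out each array.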

Additional observations from a re-analysis of the deposited data

How the results depend on the processing

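The count of genes called over all genes was 3169. With an array left out it ran between 1050 and 2841, with 1232 without Blnc1 shRNA replicate 1 and 1050 without replicate 2. For the mitochondrial ribosomal genes called lower, 37, the range was 8 to 29, for the large subunit 7 to 20 in place of 24, and for the small subunit 1 to 11 in place of 13. These fits hold fewer arrays, and a lone array was assumed to vary like the other group. With a variance trend, 56 were called lower and 1 higher (Mrps6), and 38 of the large subunit were called lower. The median log2 fold change, -0.36, was -0.46 after quantile normalization, -0.29 after centring and -0.33 with probe sets averaged. It was -0.38 to -0.36 with an array left out. The median log2 level of the members was 7.56 and 7.54 on the Blnc1 shRNA arrays, against 7.92 and 7.92 with scramble. The spread of these levels between arrays of a group was 0.01, which is not a spread of the median log2 fold change. The replicate numbers were not taken to pair the arrays. With the replicate number as a block, 34 members were called lower, all among the 37, with 23 in the large and 11 in the small subunit. In that fit 3179 genes were called in all, and the median of the members stayed at -0.36. With averaged probe sets 38 members were called lower, 31 of them among the 37. Called members kept their sign in each refit of all genes, while single probe sets above background were positive for the called genes Mrpl38 (0.054), Mrpl35 (0.033) and Mrpl21 (0.0011). Among the members and their neighbours, the genes not called that turned sign were Mrpl16 (0.0116 after centring, -0.115 to 0.0098 with an array left out), Mrpl54 (-0.155 to 0.0057 with an array left out), Mrps22 (0.0464 after centring, -0.0872 to 0.0511 with an array left out), Mrps7 (0.0512 after centring, -0.0449 to 0.0184 with an array left out), Cyb5rl (0.0047 after quantile normalization, 0.0037 after centring, -0.184 to 0.0620 with an array left out), Gga3 (-0.419 to 0.0953 with an array left out) and Mitd1 (-0.0161 after quantile normalization). Rpl13, called lower, read 0.19 with averaged probe sets. The cause was not tested.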

Other observations

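Several probe sets that the annotation assigns to a mitochondrial ribosomal gene and a second gene at once stood outside the comparison. For Mrps6 with Slc5a3, an inositol transporter gene, 3 such probe sets had log2 fold changes of 2.15, 0.44 and 0.42. The one at 2.15 read 5.75 and 6.16 with Blnc1 shRNA, against 3.68 and 3.92 with scramble (SE of the difference 0.16). The one at 0.44 read 8.96 and 8.95 with Blnc1 shRNA, against 8.56 and 8.47 with scramble, and the one at 0.42 read 8.34 and 8.24 with Blnc1 shRNA, against 7.98 and 7.75 with scramble (SE of the differences 0.10 and 0.12). In each of the 3, both Blnc1 shRNA arrays lay above both scramble arrays, and the annotation does not tell which gene's transcripts they read. The brightest probe set annotated to Slc5a3 alone was at background in both groups, with 2.02 and 2.04 with Blnc1 shRNA, against 1.88 and 2.28 with scramble. For Mrps25 with the nuclear receptor gene Nr2c2, the 3 probe sets had log2 fold changes of 0.29, 0.13 and -0.0021, with standard errors of 0.14, 0.10 and 0.10.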
